A study of Mus musculus with 6 samples.

Results

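The 53 genes described here encode proteins of DNA replication and of mitosis. They were taken by symbol from a list that names 24 genes of S phase and 29 genes of G2 and mitosis (G2/M), by a rule that uses no measured value, and all 53 were found among the 55401 genes counted. The RNA-Seq experiment asked which transcripts change in NIH3T3 cells, an immortalized line of mouse embryonic fibroblasts, when they express TAZ-CAMTA1 (TC), and what aurintricarboxylic acid (ATA) does to that profile. TC is the fusion protein of epithelioid hemangioendothelioma and acts as an activated form of the coactivator TAZ, which works through TEAD transcription factors. ATA is a small molecule that the study found in a screen for compounds that keep TAZ and TEAD apart.

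There were 2 libraries of cells with the empty vector given DMSO (EV), 1 library of cells with TC given DMSO (TC) and 3 libraries of cells with TC given 10 µM ATA (TC + ATA). Treatment lasted 48 h in every group, and the cells had been seeded 16 h earlier without treatment. The promoter that drove TC, and whether the cells were 1 clone or a pool, are not given in the sources used here. Nothing says that the libraries of a group came from separate cultures, so the p-values measure only the spread between these libraries, which may be technical. EV cells with ATA were not analysed here, so the action of ATA without TC cannot be told apart from its action in TC cells.

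In a dividing cell, origins are licensed in G1 when CDC6 and CDT1 load the MCM helicase onto DNA, and the helicase is activated in S phase with CDC45 and the GINS complex. Primase and DNA polymerase alpha start each strand, the sliding clamp PCNA is loaded by replication factor C, and ribonucleotide reductase and thymidylate synthase supply deoxynucleotides. Many of these genes are switched on by E2F factors at the G1/S boundary. The G2/M genes are expressed later, under the control of the MuvB complex with B-MYB and FOXM1, and encode mitotic cyclins and kinases, the spindle checkpoint, centromere proteins and the machinery of cytokinesis. Both groups of transcripts are widely used as readouts of proliferation. In bulk RNA, fewer cells in a phase of the cycle and less RNA of a gene per cell cannot be told apart.

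The libraries held 58471484 to 74413193 counts with a median of 71053010, and 18539 genes passed edgeR's filter on low counts. Each of the 53 members passed it. The lowest count of any member in any library was 309 (E2f2), and the members' mean levels ran from 6.03 to 469 CPM. In TC versus EV the standard error of the log2 fold change was 0.17 for E2f2 and 0.14 for Fen1, beside a median of 0.091 for the S phase members. Fibroblast transcripts were abundant (Col1a2 at 5128 to 7229 CPM, counts per 1000000 after TMM scaling), although Pdgfra was lower in TC than in EV (log2 fold change -1.20, standard error 0.085, adjusted p = 1.31e-05). The summed level of 8 fibroblast markers was 12194 and 13717 CPM in EV, 17070 CPM in TC and 16058 to 17118 CPM in TC + ATA. At an adjusted p of at most 0.05, 2 of them were higher (25%) and 1 lower (12.5%) in TC versus EV, beside 14.8% and 13.2% of all genes. In TC + ATA versus EV 5 were higher (62.5%) and 1 lower (12.5%), beside 18% and 18.6% of all genes. The part of these markers in the values of the members was not tested. The summed level of the 7 markers of epithelial, endothelial and blood cells that passed the filter was 7.70 and 7.78 CPM in EV, 8.27 CPM in TC and 5.37 to 10.6 CPM in TC + ATA. Epcam, which did not pass, was at 0 CPM in 4 of 6 libraries and Cdh1 in 1, and Krt8 stayed under 0.3 CPM. The median log2 fold change of the 7 in TC versus EV was 1.33, at levels of at most 5.33 CPM, and 1 of them was higher in each comparison with EV. These were the endothelial genes Cdh5 in TC (log2 fold change 1.55, standard error 0.48, adjusted p = 0.0385) and Kdr in TC + ATA (log2 fold change 1.13, standard error 0.36, adjusted p = 0.0349), both at most 1.43 CPM in any library, and their part in the values of the members was not tested. The EV libraries differed more from each other than the TC + ATA libraries did, with a chi-square per degree of freedom, computed on counts across genes, of 61.3 for the EV pair and 5.86 to 6.61 for the TC + ATA pairs. Between the EV libraries the median S phase member was lower by 0.12 (log2) in EV 2, with 19 of 24 lower there, and the median G2/M member was higher by 0.031, with 18 of 29 higher.

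Promoter windows of 300 bases, from 250 before to 50 after the transcription start, were available for 43 of the 53 members (48 RefSeq promoters, build GRCm38.p6). They were searched on both strands for CCAAT, for the CHR element (cell cycle genes homology region, TTTGAA or TTCGAA) through which MuvB complexes bind, for E2F sites (TTTCCCGC, TTTGGCGC, TTTCGCGC or TTTGGCGG) and for the TEAD site GGAATG. A CHR match was present in 80% of the 25 G2/M promoters, in 26.1% of the 23 S phase promoters and in 14.3% of the promoters of all genes tested (19.2% of all 32851 promoters). E2F matches showed the other order, with 34.8% of the S phase promoters, 4% of the G2/M promoters and 3.92% of the promoters of genes tested (2.37% of all promoters). CCAAT was found in 84% of the G2/M, 65.2% of the S phase and 37.5% of the tested promoters (37.4% of all). Both CCAAT and CHR were held by 76% of the G2/M, 21.7% of the S phase and 5.81% of the tested promoters (7.52% of all). The TEAD site was found in 12% of the G2/M and 4.35% of the S phase promoters, beside 12.9% of the promoters of genes tested and 14.7% of all. These shares count letters in a window and are no measure of binding.

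**Figure D1:**
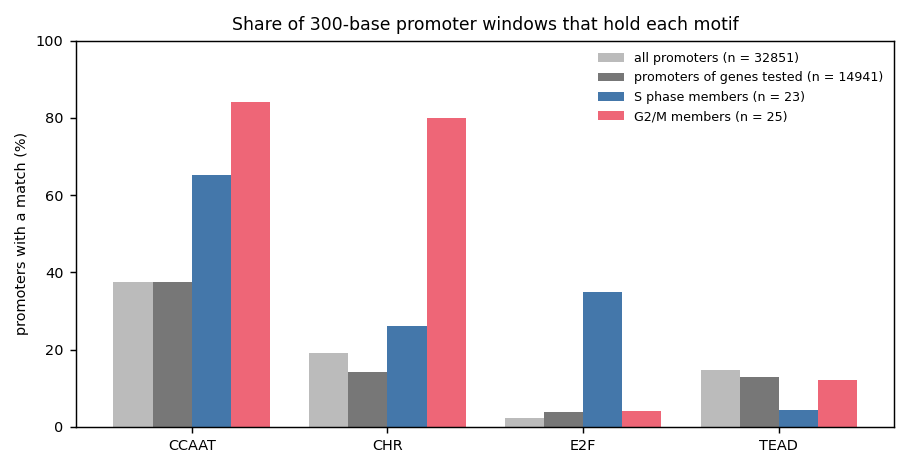
Share of promoter windows with at least 1 match to each motif (vertical axis, percent) for all RefSeq promoters, for promoters of genes tested and for S phase and G2/M members. The CHR bar of the G2/M members (80%) and the E2F bar of the S phase members (34.8%) stand above the other bars of their motif, and the TEAD bars of both member groups lie below that of all promoters (14.7%).

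A CHR match of 6 G2/M members that recur in the comparisons is shown within 30 bases of the coding strand, 5′ to 3′, with the matched letters in capitals. Only stretches that lie wholly before the transcription start are shown. The windows of Cdk1, Ect2, Ccnb2 and Mki67 hold 2 CHR matches each, not all of which are shown. Which match is bound was not tested. The 6 genes include Ect2 and Prc1, higher in TC than in EV, and Ccnb2, lower in TC. Cdk1, Cdc20 and Mki67 were not called there. The matches shown all read TTTGAA, a form the search asked for. Other forms occur in other G2/M members, such as TTCGAA in Bub1b and TTCAAA in Kif11. The stretches lie at chr10:69352966-69352995 on the minus strand, chr4:118437344-118437373 on the minus strand, chr3:27153975-27154004 on the minus strand, chr7:80294434-80294463 on the plus strand, chr7:135716478-135716507 on the minus strand and chr9:70421704-70421733 on the minus strand. In Cdk1 and Cdc20 the same stretch also holds a CCAAT match, on the opposite strand in Cdk1.
Cdk1: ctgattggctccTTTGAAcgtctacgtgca
Cdc20: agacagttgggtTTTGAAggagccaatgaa
Ect2: ccgtttaccggaTTTGAAacacactcacaa
Prc1: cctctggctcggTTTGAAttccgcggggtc
Mki67: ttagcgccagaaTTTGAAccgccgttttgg
Ccnb2: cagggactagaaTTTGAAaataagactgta

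E2F matches are shown in the same way for 5 S phase members, of which Cdc6, Mcm7 and Pola1 were higher in TC than in EV and Mcm5 and Mcm6 were not called. They lie at chr11:98908002-98908031 on the plus strand, chr5:138172030-138172059 on the minus strand, chrX:93632275-93632304 on the minus strand, chr8:75109345-75109374 on the plus strand and chr1:128359797-128359826 on the minus strand. In Mcm5 and in Mcm6 a second match, on the opposite strand, overlaps the one shown.
Cdc6: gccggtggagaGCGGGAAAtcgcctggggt
Mcm7: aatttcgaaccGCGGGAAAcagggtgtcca
Pola1: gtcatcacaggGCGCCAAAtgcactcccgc
Mcm5: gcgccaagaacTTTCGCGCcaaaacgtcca
Mcm6: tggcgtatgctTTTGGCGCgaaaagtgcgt

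Rrm2, the S phase member with the largest increase, had no E2F, CHR or TEAD match in its window and 1 CCAAT match, at chr12:24708192-24708221 on the plus strand. Nusap1, the G2/M member with the largest decrease, had no CCAAT, CHR or E2F match and 1 match to the TEAD site on the opposite strand, at chr2:119618090-119618119 on the plus strand. They are shown for the size of the genes' changes, and because Nusap1 lacks the CCAAT and CHR matches that most G2/M promoters hold.
Rrm2: ggtcagcggcgtCCAATgggaggcgaggcc
Nusap1: agtactgtccccCATTCCtcatctgcctct

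Among the members, expressed as CPM per kilobase of exon in EV, Pcna (166) and Cdc20 (157) had the highest levels, followed by Mcm3 (80.9), Ube2c (64.7) and the helicase subunits Mcm5, Mcm6 and Mcm7 (59.8, 59.7 and 58.7), which lay within the spread of the EV libraries of each other. E2f2 (1.31) and Fen1 (3.74) were the lowest. Rrm2, the small subunit of ribonucleotide reductase, was the ninth in this order in EV at 52.8 and stood at 119 in TC and 104 in TC + ATA. Anln moved from 28.4 in EV to 60.7 in TC and 55.5 in TC + ATA. Gene positions below are those of GENCODE M21 on GRCm38. Levels of genes that share exons or sequence with others are uncertain. Exonic bases of another gene overlap 17 members, on the opposite strand in 15, and cover 84.2% of the exonic bases of Fen1, 67.3% of Gins2 and 29.3% of Kif20a. Of the possible 50-base stretches of the transcripts, 23.4% of those of Ccnb1, 19.1% of Pcna, 16.5% of Mcm7 and 10.4% of Cdc20 also occur in another annotated gene.

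**Figure D2:**
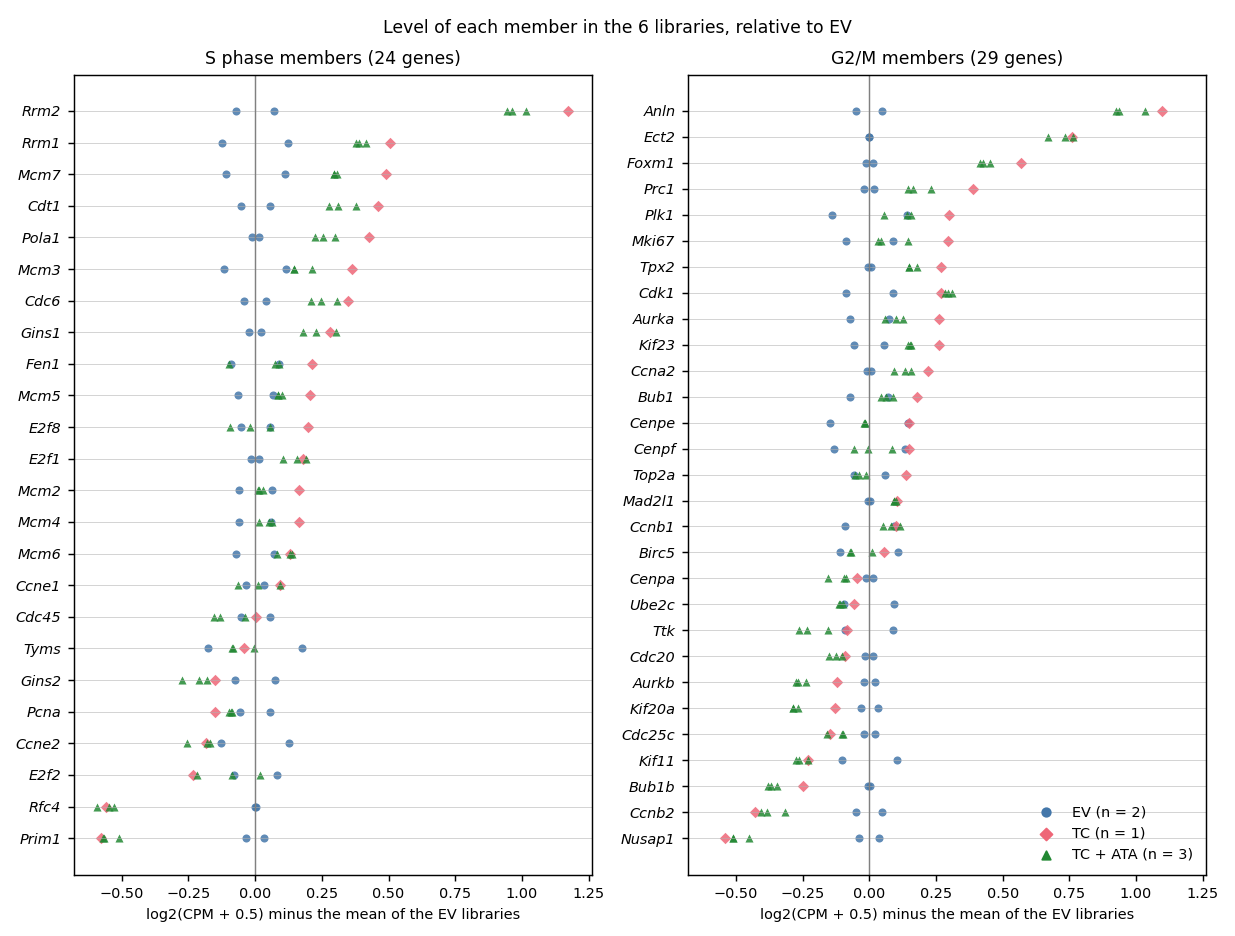
Level of each of the 24 S phase and 29 G2/M members in the 6 libraries, as log2(CPM + 0.5) minus the mean of the EV libraries (horizontal axis), with EV as circles, TC as diamonds and TC + ATA as triangles. Most members lie within 0.5 of EV in every library, Rrm2 and Anln lie about 1 above EV in every library with TC, and the TC diamond lies to the right of the 3 TC + ATA triangles for 37 of the 53 members.

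In TC relative to EV, 7 of the 24 S phase members were higher (29.2%) and 2 were lower (8.33%) at an adjusted p of at most 0.05 from edgeR's quasi-likelihood test with Benjamini-Hochberg adjustment over all genes tested, the rule used for every call below. Of the 18539 genes in the test, 14.8% were higher and 13.2% lower by this rule, and among the 9824 genes within the members' range of expression 20.5% and 19.2%. The higher members were Mcm3, Mcm7, Cdc6, Cdt1, Pola1, Rrm1 and Rrm2, and the lower ones were Rfc4 and Prim1. The median log2 fold change of the S phase members was 0.17, beside -0.026 for all genes. In TC + ATA relative to EV, which shares its EV libraries with the first comparison, 7 S phase members were higher (29.2%) and 3 were lower (12.5%), against 18% and 18.6% of all genes. Among the genes within the members' range of expression the shares were 23.8% and 26.1%. The median of the S phase members was then 0.032, beside -0.011 for all genes. In TC versus EV no member of either group reached an absolute log2 fold change of 2, a limit that 3.64% of all genes passed together with the adjusted p. The limit of 1 was reached by 2 of the 53 members (Rrm2 and Anln). Together with the adjusted p, 1787 of all 18539 genes passed that limit. Without EV 1 or without EV 2, more S phase members were called in TC versus EV, as were more of all genes. Such a fit leaves 1 EV library beside the single TC library. In TC + ATA versus EV, leaving out TC + ATA 1 or TC + ATA 2 left 4 or 3 higher in place of 7. Calls over all genes in either direction were then 5140 of 18431 and 5013 of 18379, in place of 6789 of 18539. Scaling by library size alone, which lowered the median of all genes in TC versus EV by 0.11, gave 6 higher and 3 lower with a median of 0.063. For TC + ATA versus EV it gave 5 higher and 5 lower with a median of -0.053, so the sign of that median depended on the scaling.

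**Figure D3:**
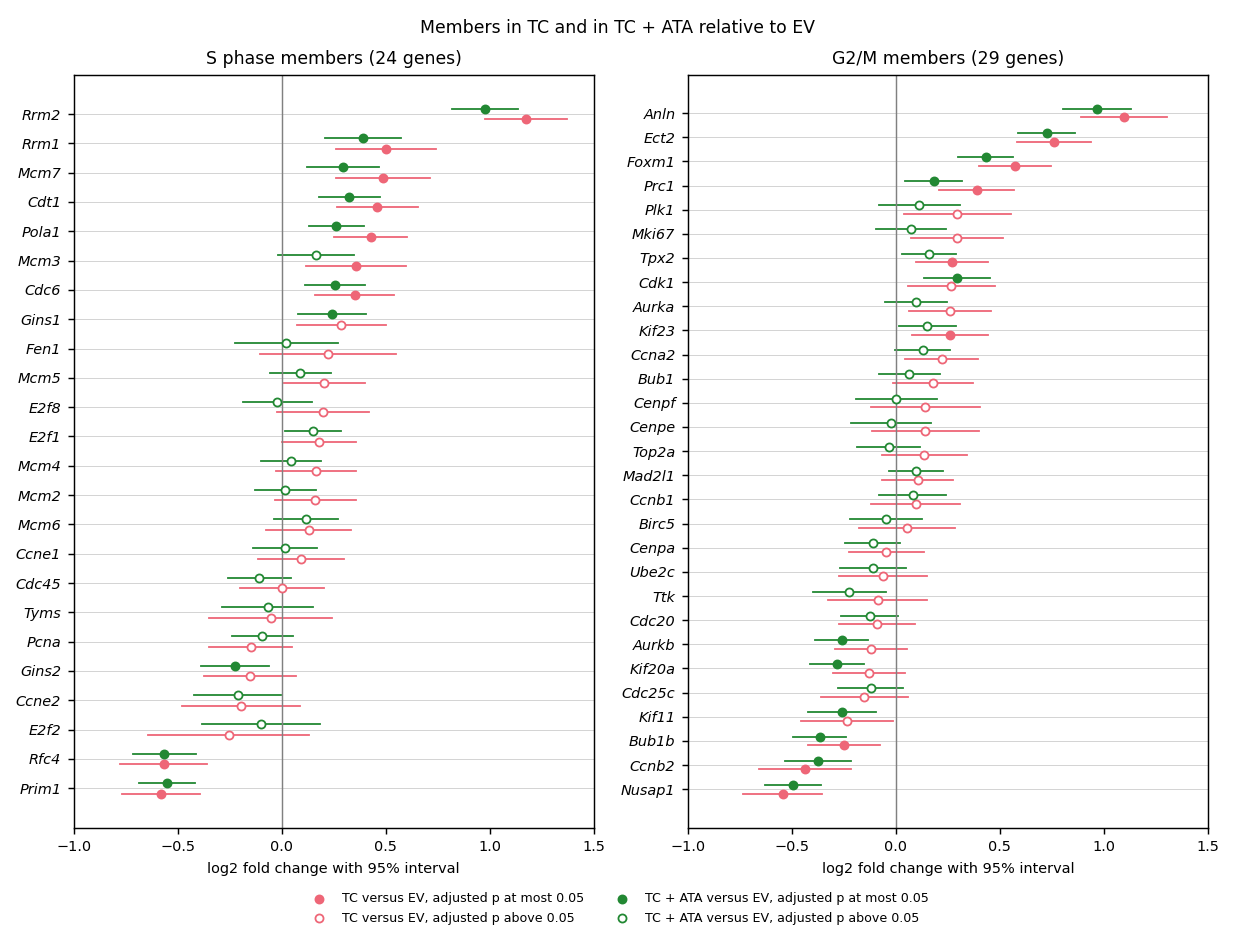
log2 fold change of each member in TC (red) and TC + ATA (green) relative to EV, with 95% intervals, filled where the adjusted p was at most 0.05. Rrm2, Anln and Ect2 stand apart on the right in both comparisons, Rfc4, Prim1 and Nusap1 on the left, and the intervals of most other members cross or lie close to 0.

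The clearest change among the S phase genes was in deoxynucleotide supply. Rrm2 (chr12:24708241-24714146) was at 154 and 139 CPM in the EV libraries, 330.2 CPM in TC and 296, 282 and 285 CPM in TC + ATA. Its EV libraries lay far below every library with TC, and TC lay above the 3 TC + ATA libraries. This corresponds to a 2.26-fold higher level in TC than in EV (log2 fold change 1.17, standard error 0.088, adjusted p = 1.77e-05) and a 1.97-fold higher level in TC + ATA (log2 fold change 0.98, standard error 0.070, adjusted p = 8.4e-06). Rrm1 (chr7:102441695-102469771), which encodes the large subunit of the same enzyme, was at 291 and 245 CPM in the EV libraries, 380.4 CPM in TC and 357, 348 and 351 CPM in TC + ATA. Here too the groups EV and TC + ATA did not overlap, with a smaller difference from EV in TC (log2 fold change 0.50, standard error 0.11, adjusted p = 0.00723) and in TC + ATA (log2 fold change 0.39, standard error 0.081, adjusted p = 0.00512). Tyms, which encodes thymidylate synthase, differed more between the EV libraries than any other of the 53 (96.4 and 75.5 CPM) and was not called (log2 fold change -0.053 in TC and -0.068 in TC + ATA, 95% intervals -0.35 to 0.24 and -0.29 to 0.15).

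Of the 6 subunits of the MCM helicase, Mcm3 and Mcm7 were higher in TC than in EV, and Mcm7 also in TC + ATA. Mcm7 (chr5:138164583-138172422) was at 279 and 239.8 CPM in the EV libraries, 364 CPM in TC and 320.3, 318 and 318 CPM in TC + ATA. The 3 TC + ATA libraries lay together, between both EV libraries and TC (log2 fold change 0.49, standard error 0.10, adjusted p = 0.00644, for TC against EV). For TC + ATA against EV the log2 fold change of Mcm7 was 0.30 (adjusted p = 0.015), a call that was lost without TC + ATA 1, 2 or 3 (adjusted p = 0.065, 0.0676 and 0.0625). Mcm3 (chr1:20802968-20820312), the most abundant subunit by CPM, was at 328 and 279 CPM in the EV libraries, 389 CPM in TC and 351, 335 and 335 CPM in TC + ATA. TC exceeded every other library, and the call for TC against EV (log2 fold change 0.36, standard error 0.11, adjusted p = 0.0336) was lost when TC + ATA 1, 2 or 3 was left out (adjusted p = 0.0772, 0.0895 and 0.0836). Mcm2, Mcm4, Mcm5 and Mcm6 ranged from 0.13 to 0.20 on the log2 scale for TC against EV and from 0.017 to 0.12 for TC + ATA, and none of the 4 was called.

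Of the genes of origin licensing and helicase activation, both licensing factors were higher in TC than in EV. Cdt1 (chr8:122568015-122573554) was at 87.0 and 80.7 CPM in the EV libraries, 115 CPM in TC and 102, 104 and 109 CPM in TC + ATA. The EV libraries were the lowest and TC the highest of the 6 (log2 fold change 0.46, standard error 0.085, adjusted p = 0.00361, in TC, and log2 fold change 0.32, standard error 0.065, adjusted p = 0.00415, in TC + ATA). Cdc6, the ATPase that loads the helicase with CDT1, had a log2 fold change of 0.35 in TC (adjusted p = 0.0134) and 0.26 in TC + ATA (adjusted p = 0.0125, lost without TC + ATA 1 or 2 at 0.0658 and 0.0547). The GINS subunits went apart in TC + ATA versus EV, where Gins1 was higher (log2 fold change 0.24, adjusted p = 0.0266) and Gins2 lower (-0.23, adjusted p = 0.0356). Both calls were lost when any 1 of the TC + ATA libraries was left out (adjusted p = 0.0811, 0.0566 and 0.109 for Gins1 and 0.0789, 0.108 and 0.137 for Gins2), and most exonic bases of Gins2 overlap Gse1 on the opposite strand. Cdc45 was called in neither comparison (-0.11 in TC + ATA, 95% interval -0.26 to 0.042).

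At the replication fork, members moved in opposite directions. Prim1 (chr10:128015168-128030037), the catalytic subunit of primase, was at 77.8 and 81.6 CPM in the EV libraries, 53.2 CPM in TC and 53.7, 53.5 and 55.7 CPM in TC + ATA. Rfc4 (chr16:23113943-23127737), a subunit of the clamp loader, was at 32.5 and 32.6 CPM in the EV libraries, 21.9 CPM in TC and 21.4, 22.1 and 22.4 CPM in TC + ATA. For both genes each EV library lay above all 4 libraries with TC, and TC lay within the range of the TC + ATA libraries or just below it. Prim1 was lower in TC (log2 fold change -0.58, standard error 0.083, adjusted p = 0.000831) and in TC + ATA (log2 fold change -0.55, standard error 0.060, adjusted p = 0.000109). Rfc4 fell by a similar amount in TC (log2 fold change -0.57, standard error 0.093, adjusted p = 0.00185) and in TC + ATA (log2 fold change -0.57, standard error 0.067, adjusted p = 0.000197). Pola1, the catalytic subunit of the polymerase that extends the primer made by primase, was in contrast higher in TC (log2 fold change 0.43, adjusted p = 0.00316) and in TC + ATA (0.26, adjusted p = 0.00742, and 0.055 without TC + ATA 2). Pcna (chr2:132249162-132253314), the clamp itself, was at 414 and 383 CPM in the EV libraries, 359 CPM in TC and 372, 374 and 375 CPM in TC + ATA. The EV libraries were the highest, and the difference was within the error in TC (log2 fold change -0.15, 95% interval -0.35 to 0.049) and in TC + ATA (-0.094, -0.24 to 0.053). Fen1, the flap nuclease, was at 8.39 to 10.6 CPM and was not called.

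None of the 5 genes for E-type cyclins and E2F factors was called in either comparison with EV. E2f1 (chr2:154559407-154569892), an activator of S phase genes, was at 75.4 and 77.0 CPM in the EV libraries, 86.3 CPM in TC and 81.9, 87.0 and 85.1 CPM in TC + ATA. All 4 libraries with TC lay above both EV libraries, by a small amount (log2 fold change 0.18 in TC, adjusted p = 0.128; 0.15 in TC + ATA, adjusted p = 0.0763). Ccne2 (chr4:11191351-11204779), a cyclin partner of CDK2, was at 20.98 and 25.1 CPM in the EV libraries, 20.1 CPM in TC and 20.3, 19.1 and 20.2 CPM in TC + ATA. The EV libraries were higher than the rest (log2 fold change -0.20 in TC and -0.21 in TC + ATA, adjusted p = 0.292 and 0.104). For E2f2, E2f8 and Ccne1 the log2 fold change in TC was -0.26, 0.20 and 0.093.

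**Figure D4:**
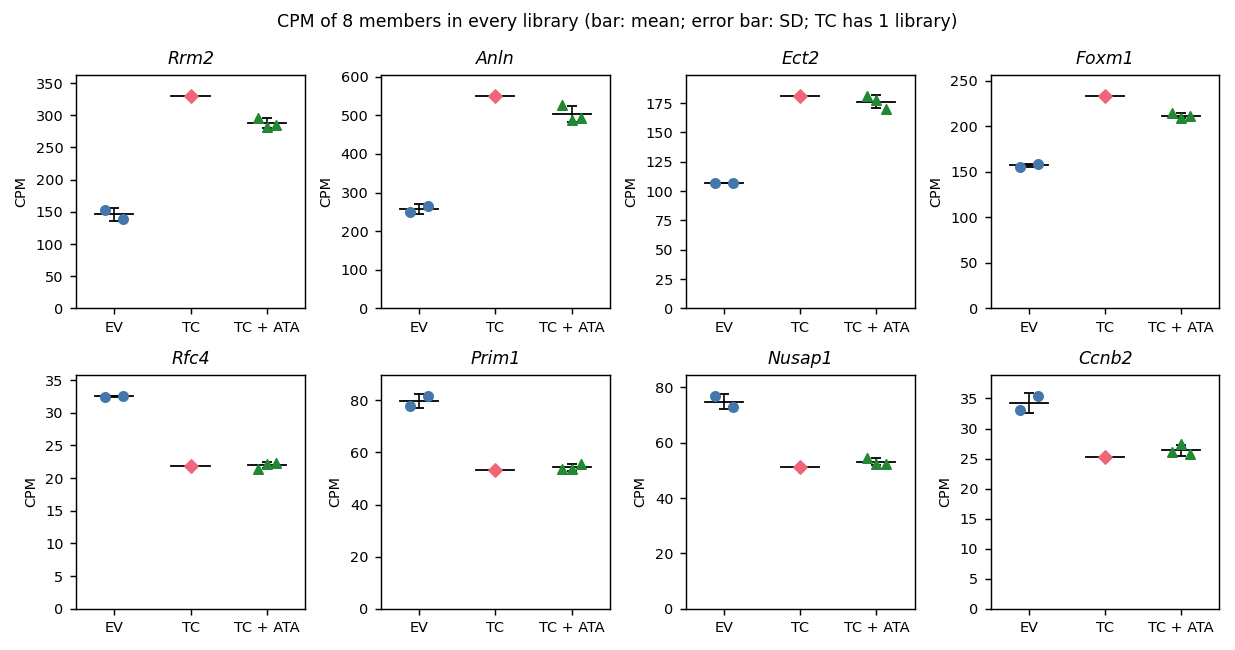
CPM (vertical axis, from 0) of 8 members in every library by group, with the mean as a bar and the SD as an error bar. Rrm2, Anln, Ect2 and Foxm1 were higher in TC and in the 3 TC + ATA libraries than in both EV libraries, and Rfc4, Prim1, Nusap1 and Ccnb2 were lower.

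Of the 29 G2/M members, 6 were higher in TC than in EV (20.7%) and 3 were lower (10.3%), shares close to those of genes in the same range of expression (20.5% and 19.2%) for the higher calls and below them for the lower. The higher members were Anln, Ect2, Foxm1, Prc1, Tpx2 and Kif23, and the lower ones were Nusap1, Ccnb2 and Bub1b. The median log2 fold change was 0.14, beside -0.026 for all genes. In TC + ATA versus EV, 5 were higher (17.2%) and 6 were lower (20.7%), beside 18% and 18.6% of all genes. Among genes in the same range of expression the shares were 23.8% and 26.1%. The median of the G2/M members was 0.0021, beside -0.011 for all genes. Without EV 1 or without EV 2, more G2/M members were called in both comparisons with EV, as were more of all genes. In TC + ATA versus EV, 3 members were higher without TC + ATA 2. Calls over all genes in either direction were then 5013 of 18379, in place of 6789 of 18539. Scaling by library size alone gave medians of 0.026 in TC and -0.091 in TC + ATA, with 4 members higher and 10 lower in the latter.

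The largest changes among the G2/M members were those of Anln and Ect2, which act in cytokinesis. Anln (chr9:22332012-22389188), which encodes the actin-binding scaffold anillin of the contractile ring, was at 249 and 266 CPM in the EV libraries, 550.4 CPM in TC and 528, 489 and 493 CPM in TC + ATA. Its level was 2.14 times that of EV in TC (log2 fold change 1.10, standard error 0.091, adjusted p = 3.27e-05) and 1.96 times that of EV in TC + ATA (log2 fold change 0.97, standard error 0.072, adjusted p = 1.09e-05). Ect2 (chr3:27097222-27153878), which encodes the exchange factor that activates RhoA at the division plane, was at 107 and 107 CPM in the EV libraries, 181 CPM in TC and 181, 178 and 170.1 CPM in TC + ATA. TC lay within the range of the TC + ATA libraries, and both groups were far above EV (log2 fold change 0.76, standard error 0.078, adjusted p = 0.000117, in TC; log2 fold change 0.72, standard error 0.061, adjusted p = 2.26e-05, in TC + ATA). Prc1 (chr7:80294450-80316259), the bundler of midzone microtubules, was at 136 and 139.6 CPM in the EV libraries, 180.4 CPM in TC and 162, 152 and 154 CPM in TC + ATA. TC was the highest and EV the lowest (log2 fold change 0.39 in TC, adjusted p = 0.00607). In TC + ATA the log2 fold change of Prc1 was 0.18 (adjusted p = 0.0438), a call lost without TC + ATA 1, 2 or 3 (adjusted p = 0.181, 0.119 and 0.116).

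Not all genes of the spindle and midzone followed. Nusap1 (chr2:119618298-119651244), a microtubule-bundling protein, was at 76.9 and 72.9 CPM in the EV libraries, 51.3 CPM in TC and 54.6, 52.4 and 52.4 CPM in TC + ATA. Both EV libraries lay above all libraries with TC (log2 fold change -0.54, standard error 0.083, adjusted p = 0.0013, in TC; log2 fold change -0.49, standard error 0.060, adjusted p = 0.000235, in TC + ATA). The kinesins differed. Kif23, the motor of the centralspindlin complex, was higher in TC (log2 fold change 0.26, adjusted p = 0.0407, lost without TC + ATA 1, 2 or 3 at 0.0989, 0.113 and 0.0981). Kif11, the motor that separates the spindle poles, was lower in TC + ATA (-0.26, adjusted p = 0.02, lost without TC + ATA 1, 2 or 3 at 0.0853, 0.071 and 0.0854), as was Kif20a, a midzone motor (-0.28, adjusted p = 0.00427). In TC versus EV the values of Kif11 and Kif20a were -0.24 and -0.13 and were not called.

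Among the mitotic cyclins, CDK1 and their regulators, Foxm1 (chr6:128362967-128376146), the forkhead factor that activates G2/M genes, was at 156 and 159 CPM in the EV libraries, 234 CPM in TC and 215, 209 and 211 CPM in TC + ATA. The 3 TC + ATA libraries lay together between EV and TC (log2 fold change 0.57, standard error 0.076, adjusted p = 0.000554, in TC; log2 fold change 0.43, standard error 0.058, adjusted p = 0.000439, in TC + ATA). Cdk1 (chr10:69335146-69352938), the kinase that drives mitotic entry, was at 214 and 189 CPM in the EV libraries, 242 CPM in TC and 245, 249 and 246 CPM in TC + ATA. Its EV libraries were unequal and both were below the others (log2 fold change 0.27 in TC, adjusted p = 0.0614; 0.29 in TC + ATA, adjusted p = 0.00975, and 0.057 without TC + ATA 2). Of the B-type cyclins that activate CDK1, Ccnb2 was lower in both comparisons with EV and Ccnb1 was called in neither. Ccnb1 (chr13:100778650-100786570) was at 162 and 142 CPM in the EV libraries, 162 CPM in TC and 160.4, 157 and 164 CPM in TC + ATA (95% interval -0.12 to 0.31 in TC and -0.081 to 0.24 in TC + ATA). Ccnb2 (chr9:70407692-70421547) was at 33.1 and 35.4 CPM in the EV libraries, 25.3 CPM in TC and 26.1, 27.4 and 25.7 CPM in TC + ATA. Here both EV libraries lay above the rest (log2 fold change -0.44, standard error 0.10, adjusted p = 0.00915, in TC; log2 fold change -0.38, standard error 0.070, adjusted p = 0.00293, in TC + ATA). Ccna2, the A-type cyclin, and Cdc25c, a phosphatase that activates CDK1, differed from EV by 0.22 and -0.15 on the log2 scale in TC and were called in neither comparison.

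Of the 5 genes of mitotic kinases and the chromosomal passenger complex, Tpx2 was higher in TC and Aurkb was lower in TC + ATA. Tpx2 (chr2:152847964-152895321), the activator of Aurora A on the spindle, was at 209.9 and 208 CPM in the EV libraries, 252 CPM in TC and 237, 232 and 232 CPM in TC + ATA. TC was above the rest and EV below (log2 fold change 0.27 in TC, adjusted p = 0.0281, lost without TC + ATA 1, 2 or 3 at 0.0843, 0.101 and 0.078). Aurkb (chr11:69045647-69051664), the kinase of the passenger complex, was at 122 and 125 CPM in the EV libraries, 114 CPM in TC and 105, 102 and 103 CPM in TC + ATA. TC lay between EV and TC + ATA and was not called (log2 fold change -0.12, adjusted p = 0.288), whereas in TC + ATA it was lower (-0.26, adjusted p = 0.00621). The log2 fold changes of Aurka, Plk1 and Birc5 were 0.26, 0.29 and 0.052 in TC and 0.095, 0.11 and -0.048 in TC + ATA, and none of them was called.

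Of the spindle checkpoint and anaphase-promoting complex genes, Bub1b (chr2:118598211-118641591), which encodes the checkpoint protein BUBR1, was at 168 and 169 CPM in the EV libraries, 142 CPM in TC and 129.6, 131 and 133 CPM in TC + ATA. The groups were ordered EV, TC and TC + ATA from high to low without overlap (log2 fold change -0.25 in TC, adjusted p = 0.0377, lost without TC + ATA 1, 2 or 3 at 0.101, 0.119 and 0.0923; -0.37 in TC + ATA, adjusted p = 0.000911). Cdc20 (chr4:118432901-118437352), the activator of the anaphase-promoting complex, was at 290.2 and 296 CPM in the EV libraries, 275 CPM in TC and 273, 269 and 264 CPM in TC + ATA. The order was the same and the differences were smaller (log2 fold change -0.091 in TC, 95% interval -0.27 to 0.091; -0.13 in TC + ATA, -0.26 to 0.0081). Bub1, Mad2l1, Ttk and Ube2c ranged from -0.089 to 0.18 on the log2 scale in TC and from -0.22 to 0.10 in TC + ATA, with no call.

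None of the 5 genes of chromosome structure and the centromere was called against EV. Top2a (chr11:98992943-99024189), topoisomerase II alpha and the member with the highest mean CPM, was at 449 and 486 CPM in the EV libraries, 514 CPM in TC and 463, 454 and 450.2 CPM in TC + ATA. TC was the highest library and the others overlapped (log2 fold change 0.14 in TC, adjusted p = 0.308). Mki67 (chr7:135689784-135716361), the proliferation marker Ki-67 that coats mitotic chromosomes, was at 199.8 and 225 CPM in the EV libraries, 260.4 CPM in TC and 235, 219 and 217 CPM in TC + ATA. Again TC was the highest and EV and TC + ATA overlapped (log2 fold change 0.29 in TC, 95% interval 0.070 to 0.52, adjusted p = 0.0543; 0.072 in TC + ATA, adjusted p = 0.489). Cenpa (chr5:30666777-30674830), the centromeric histone, was at 172 and 175 CPM in the EV libraries, 168 CPM in TC and 163, 156 and 163 CPM in TC + ATA. Both EV libraries were the highest (log2 fold change -0.047 in TC and -0.11 in TC + ATA, neither called). Cenpe and Cenpf, centromere proteins of mitosis, were at 0.14 and 0.14 in TC.

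In TC + ATA relative to TC, the comparison that asks what ATA changed in cells with TC, no member was called by edgeR's quasi-likelihood test, and none by DESeq2. Of the genes tested, 0.426% passed as higher and 0.156% as lower. At an unadjusted p under 0.05, 3 S phase and 2 G2/M members were lower and none was higher, beside 733 lower and 1048 higher of all 18539 genes. The smallest adjusted p of a member was 0.397 (Prc1). The log2 fold changes ran from -0.22 to 0.16 for S phase and from -0.22 to 0.063 for G2/M, and the 95% interval lay within 0.5 of 0 for 22 of 24 S phase and 29 of 29 G2/M members. The exceptions were Fen1, with a lower bound of -0.51, and E2f2, with an upper bound of 0.52.

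The direction was nonetheless mostly the same. Values were below 0 for 20 of 24 S phase (83.3%) and 25 of 29 G2/M members (86.2%). The shares were 49.3% of all genes and 53.3% of genes in the same range of expression. The medians of the S phase and G2/M members were -0.10 and -0.11, beside 0.0033 for all genes. In 14 S phase members (58.3%) and 23 G2/M members (79.3%) the TC library lay above each of the 3 TC + ATA libraries, beside 32.7% of all genes and 38.7% of genes in the same range of expression. In 3 members of each group it lay below each of them, beside 30.5% of all genes. In TC + ATA versus EV, which has replicates on both sides, every library of one group lay above every library of the other for 11 S phase and 9 G2/M members (28.7% of all genes) and below for 5 and 11 (30.1% of all genes). All of the TC + ATA versus TC values rest on the single TC library, which stands in every one of them and also supplies the TC values compared with EV. The median S phase member differed by a similar amount between the EV libraries (0.12 on the log2 scale), and the G2/M median differed less (0.031).

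**Figure D5:**
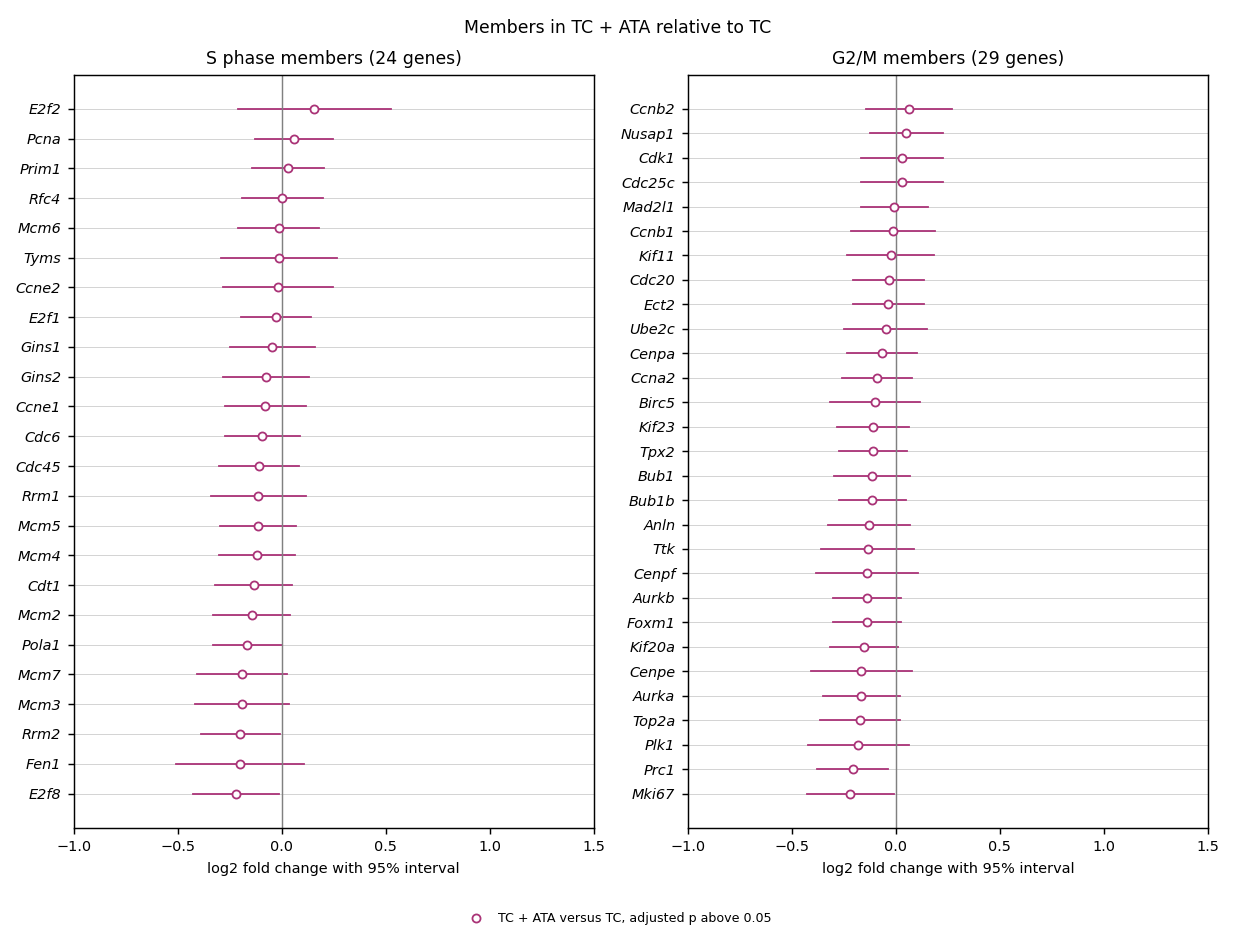
log2 fold change of each member in TC + ATA relative to TC with its 95% interval, on the same axis as the comparisons with EV. All points are open since no adjusted p was at most 0.05. Of the 53 points, 45 lie below 0 (84.9%, beside 49.3% of all genes tested), and the points run from -0.22 to 0.16.

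The 3 members with the largest decrease in TC + ATA versus TC were Mki67 (log2 fold change -0.22, standard error 0.092, adjusted p = 0.489), E2f8 (log2 fold change -0.22, standard error 0.091, adjusted p = 0.487), an E2F factor that represses its targets, and Prc1 (log2 fold change -0.21, standard error 0.075, adjusted p = 0.397). Mki67 and Prc1 are given by library above. E2f8 (chr7:48866429-48881596) was at 35.4 and 38.2 CPM in the EV libraries, 42.2 CPM in TC and 38.2, 34.4 and 36.3 CPM in TC + ATA, with TC above every other library. The 3 with the largest increase were E2f2, Ccnb2 and Pcna, with log2 fold changes of 0.16, 0.063 and 0.057 and standard errors of 0.16, 0.091 and 0.083. E2f2 (chr4:136172394-136196057), another E2F activator, was at 6.80 and 6.03 CPM in the EV libraries, 5.37 CPM in TC and 5.44, 6.50 and 6.01 CPM in TC + ATA, with overlapping EV and TC + ATA libraries. Of the members called against EV, Rrm2 had a value of -0.20 (95% interval -0.39 to -0.0075), Anln of -0.13 (-0.33 to 0.069), Foxm1 of -0.14 (-0.30 to 0.023) and Ect2 of -0.036 (-0.21 to 0.13), and Prim1, Rfc4 and Nusap1 had values of 0.030, 0.0024 and 0.049.

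Calls of members appeared in the fits that left out EV libraries, where calls over all genes rose as well. With the EV libraries left out altogether, so that the spread came from the 3 TC + ATA libraries, Mcm2, Mcm3, Mcm7, Rrm2, Aurka, Cenpe, Foxm1, Mki67, Prc1 and Top2a were called lower (4 S phase and 6 G2/M members, adjusted p from 0.00652 to 0.0495, log2 fold changes from -0.13 to -0.21). That fit called 1428 of 18000 genes in either direction, beside 108 of 18539 with all libraries. Without EV 1, 4 S phase and 7 G2/M members were called lower, beside 1469 of 18403 genes in either direction, and without EV 2, 4 and 4, beside 1416 of 18336. No member was called higher in any of these fits. Without TC + ATA 1, 2 or 3, no member was called and the calls over all genes numbered 40, 28 and 10.

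Further genes of the same processes, none of them among the 53, were also called in both directions. Against EV, 7 of 37 other replication genes were higher in TC and 4 lower, and 6 were higher in TC + ATA and 9 lower. These are 18.9% and 10.8% in TC and 16.2% and 24.3% in TC + ATA. Among genes in the members' range of expression the shares were 20.5% and 19.2% in TC and 23.8% and 26.1% in TC + ATA. The lower calls in TC and the higher calls in TC + ATA were thus below those shares, and the others were near them. Orc1, the largest subunit of the origin recognition complex, was among the higher (log2 fold change 0.63 in TC and 0.64 in TC + ATA, adjusted p = 0.00649 and 0.00105), as was Dbf4, the activator of the CDC7 kinase (0.43 and 0.36). Dnmt1, the maintenance methyltransferase, was also higher in both (0.40 and 0.20), as was Rpa1, the large subunit of replication protein A (0.33 and 0.37). Gins3 and Rpa3 were lower in both (-0.67 and -0.62 for Gins3, -0.46 and -0.43 for Rpa3). The clamp loader subunit Rfc2 was lower in both (-0.30 and -0.33), as Rfc4 was. Rfc1, another subunit, was lower in TC + ATA (-0.35) and was not called in TC (-0.33).

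Of 51 other mitosis genes, 7 were higher in TC and 7 lower (13.7% each). The shares were 14.8% and 13.2% of all genes, and 20.5% and 19.2% of genes in the members' range of expression. In TC + ATA 6 were higher (11.8%), beside 18% of all genes and 23.8% of genes in that range. There 19 were lower, which is 37.3% against 18.6% of all genes and 26.1% of genes in that range. Iqgap3, a scaffold of the actin cytoskeleton, was at 82.5 and 80.6 CPM in the EV libraries, 179 CPM in TC and 143, 145 and 139.5 CPM in TC + ATA (log2 fold change 1.13 in TC, adjusted p = 8.45e-06). Mybl2, which encodes B-MYB, was higher in TC (0.60) and in TC + ATA (0.46), as was Cep55, a protein of abscission (0.55 and 0.46). Psrc1 (-0.84 and -0.73), the kinesin Kif18a (-0.58 and -0.63) and Cdca3 (-0.40 and -0.42) were lower in both. Kif15 was lower in TC + ATA (-0.44) and was not called in TC (-0.27). No gene of these lists was called in TC + ATA versus TC (4 of 37 and 5 of 51 were lower at an unadjusted p under 0.05 and none higher, beside 733 lower and 1048 higher of all 18539 genes).

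The regulators of the RB, E2F and DREAM proteins numbered 15, of which 4 were above EV in TC by edgeR's test and none below (2 were lower at an unadjusted p under 0.05). The 4 are 26.7% of the list, beside 14.8% of all genes and 20.5% of those in the members' range of expression. E2f7, which like E2F8 represses E2F targets, was at 38.6 and 38.6 CPM in the EV libraries, 83.2 CPM in TC and 78.4, 74.3 and 75.6 CPM in TC + ATA, so that both EV libraries lay below every library with TC (log2 fold change 1.11 in TC, adjusted p = 1.14e-05; 0.98 in TC + ATA, adjusted p = 3.58e-06). E2f6 (0.71 and 0.94), another repressor, and Lin54, the CHR-binding subunit of MuvB (0.45 and 0.35), were also higher in both comparisons, and Rbl1, which encodes the pocket protein p107, was lower in TC + ATA (-0.30, adjusted p = 0.0147). None of the 15 was called in TC + ATA versus TC (2 lower and none higher at an unadjusted p under 0.05).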

How the data were processed

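RNA-Seq was measured in 6 libraries of NIH3T3 cells. The authors sequenced poly(A)-selected RNA as paired-end reads, aligned them to GRCm38.p6 (mm10) with HISAT2 2.2.1 (version and build from the submitters' processing notes) and deposited raw counts per gene from featureCounts. The annotation release and the use of strand are not given in the sources used here, so reads of overlapping or near-identical genes may be shared or lost. Library totals were 58471484 to 74413193 counts.

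Counts were tested in R 4.3.3 with edgeR 4.0.16 (TMM, filterByExpr, glmQLFit and glmQLFTest, all 6 libraries in 1 fit with 3 residual degrees of freedom, Benjamini-Hochberg over 18539 genes), a call being an adjusted p-value of at most 0.05. TC has 1 library and was assumed to vary like the other groups. Standard errors came from the F statistic. Symbols, positions and exon lengths came from GENCODE M21 of GRCm38 (55141 of 55401 genes matched). The edgeR step was tested on simulated data.

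The rule for the members uses gene names and no measured value, but the members and lists were chosen with earlier results of these data known and are described without list tests. Values by library are given, in each of 10 roles, for the member with the highest mean CPM and the one with the largest absolute change in TC + ATA versus EV, for E2f1, Foxm1, Mki67, Pcna, Ccnb1 and Cdk1, and for the 3 largest increases and the 3 largest decreases of TC over EV and of TC + ATA over TC. Of each other list, up to 3 genes called in each direction are named. E2f7 and Iqgap3 by library were chosen after their values were seen. Alternatives were DESeq2 1.42.0, 3 other scalings, 2 other filters, fits of only the groups compared, a replicate block and each EV and TC + ATA library left out in turn.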

Additional observations from a re-analysis of the deposited data

How the results depend on the processing

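For TC against EV, Rrm2, Anln, Ect2, Foxm1, Cdt1, Rfc4, Prim1 and Nusap1 kept their call in all 13 alternatives, as did Rrm2, Rrm1, Anln, Ect2, Foxm1, Rfc4, Prim1, Nusap1, Ccnb2 and Bub1b for TC + ATA against EV, and no called member changed sign in any of them. Other calls depended on the setting, and the cause was not tested. With only the groups compared, TC versus EV gave 2 S phase members higher (7 with all libraries) and 3 G2/M members higher (6) and 1 lower (3). That fit had 1 residual degree of freedom and called 3666 of 17764 genes (5191 of 18539 with all libraries). In the same setting TC + ATA versus TC gave 4 S phase and 6 G2/M members lower (0), beside 1428 of 18000 genes called (108 of 18539). A filter of 5 CPM in 1 library gave 10 G2/M members higher in TC (6) and 8 in TC + ATA (5), each against EV. Over all genes the filter gave 4713 and 5650 calls among 10887 genes (5191 and 6789 among 18539). Scaling by library size gave 5 S phase (3) and 10 G2/M (6) members lower in TC + ATA versus EV. It called 7095 of 18539 genes in either direction (6789). A log2 limit of 1 in place of 2 gave 2 members past both limits (0), beside 1787 of all 18539 genes (674). Leaving out 1 library gave, in TC versus EV, 6 to 12 S phase members higher and 2 to 5 lower and 4 to 15 G2/M members higher and 2 to 7 lower. In TC + ATA versus TC it gave 0 to 4 S phase and 0 to 7 G2/M members lower, and in TC + ATA versus EV 3 to 10 S phase members higher and 2 to 6 lower and 3 to 13 G2/M members higher and 5 to 12 lower. Of the counts of calls, 124 moved by no more than 1.5 times and 33 by more.

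Replicate numbers 1 and 2 occur in both EV and TC + ATA, and TC has number 1. Deviations from the group means correlated at -0.0161 for number 1 and -0.164 for number 2. Between EV 1 and TC + ATA 2, which differ in number, the correlation was 0.164. With 2 EV libraries the deviations of EV 1 and EV 2 mirror each other. These correlations therefore cannot decide whether libraries with the same number belong together, and the labels give only a number. With the replicate number as a block, which leaves 1 residual degree of freedom, TC versus EV gave 3 S phase members higher, 3 G2/M members higher and 1 lower. For TC + ATA versus EV the block gave 2 S phase members higher, 3 G2/M members higher and 3 lower. Calls over all 18539 genes were 3184 and 4645 in the 2 comparisons, in place of 5191 and 6789.

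TC has 1 library and no comparison with it has a replicate check on that side. The 2 EV libraries and the single TC library limited the comparisons, and E2f2 and Fen1 also had the lowest counts of the members.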
